A study of Mus musculus with 8 samples.

Results

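The 8 genes described here form the core of fat breakdown in adipocytes and its main hormonal switch: the lipases Pnpla2, Lipe and Mgll, the Pnpla2 regulators Abhd5 and G0s2, the beta-adrenergic receptors Adrb1 and Adrb3, and the phosphodiesterase Pde3b. They were picked by name as members of this pathway, with earlier results of these data known. Each had 1 row among the 18933 genes of each of the 3 deposited tables. The cells were mouse stromal vascular cells, the precursor-containing fraction of collagenase-digested fat, of a depot that the labels do not name. All cultures were transfected shortly before confluence and, after 8 h, moved to full medium. They received insulin (850 nM), dexamethasone (0.5 µM), 3-isobutyl-methylxanthine (250 µM) and rosiglitazone for 2 days, then insulin alone (160 nM) for 2 days, and RNA was taken on day 4. The 4 groups of 2 samples each received a locked nucleic acid inhibitor of miR-182, of miR-203 or of miR-708, or a control transfection. A locked nucleic acid dose of 100 nM is listed for all samples, the controls included. The labels do not otherwise describe the content of the control transfection. The series title speaks of brown adipocytes and asks for the role of microRNAs in their differentiation.

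Lipolysis takes a stored triglyceride apart in steps. Noradrenaline binds beta-adrenergic receptors, Gs proteins activate adenylyl cyclase, cyclic AMP activates protein kinase A, and the kinase phosphorylates perilipin 1 and hormone-sensitive lipase, which frees Abhd5 to activate adipose triglyceride lipase. Pde3b breaks cyclic AMP down and carries the antilipolytic effect of insulin. In brown fat the released fatty acids are both fuel for heat production and activators of Ucp1. 3-Isobutyl-methylxanthine, part of the induction medium, is itself an inhibitor of phosphodiesterases.

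The inhibitors were designed against microRNAs, so the mature sequences are shown as RefSeq gives them for the mouse assembly GRCm38.p6, 5′ to 3′, with the seed (bases 2 to 8) in capitals. The labels give the number of each microRNA but no arm, and the arm shown is the one usually taken as the guide.
mmu-miR-182-5p: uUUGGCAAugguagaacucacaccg
mmu-miR-203-3p: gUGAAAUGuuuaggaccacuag
mmu-miR-708-5p: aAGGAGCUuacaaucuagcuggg
The 3 seeds differ from each other. The 7-base complements are TTGCCAA for miR-182, CATTTCA for miR-203 and AGCTCCT for miR-708, and they were searched on the transcript strand of the longest 3′ UTR that the GENCODE M21 basic set gives each member.

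Matches stood in 2 of the 8 genes. The sites are shown with their GRCm38 positions on the plus strand and with the match in capitals.
Pnpla2, match to miR-182-5p, chr7:141460042-141460071: aattatttatttTTGCCAAagcagatctaa
Mgll, match to miR-708-5p, chr6:88826079-88826108: cccacctctcccAGCTCCTgtggggttcgg
Pnpla2 held its match at base 386 of a 3′ UTR of 1075 bases, and Mgll at base 315 of 2584 bases. Lipe (434 bases), Abhd5 (1922), G0s2 (302), Adrb1 (1378), Adrb3 (781) and Pde3b (3003) held none of the 3 motifs in this window. Of 14678 genes of the tables with such a UTR, 11.9% held the miR-182 motif, 16.6% the miR-203 motif and 15.1% the miR-708 motif. A match of 7 letters is a description and not a shown binding site.

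The values are FPKM (fragment counts divided by transcript length in kilobases and by library size). Each deposited table has a single FPKM for the control and another for the inhibitor, taken here as pooled over 2 samples. No spread between replicates can be computed, and library depth is unknown. "Rose" and "fell" are used below for genes with q under 0.05 in the authors' deposited table, made with Cuffdiff. All 8 members were tested in every comparison and stood above 1 FPKM in every group. Nothing in the labels tells separate cultures or animals from repeat libraries, and the authors' p-values may thus reflect technical spread alone. Adipocyte genes marked the cultures as labelled: in the control, Fabp4, a fatty acid carrier, stood at 37475 FPKM, Adipoq (adiponectin) at 1178 and Plin1 (perilipin 1) at 650. The brown fat markers Ucp1 and Cidea stood at 203.03 and 297 FPKM. Of the markers of other cells, the 4 endothelial and 2 nerve markers with a row stayed below 1 FPKM in every group, and the macrophage marker Emr1 stood between 0.0139 and 0.118 FPKM. The 5 macrophage markers with a row summed to 7.38 FPKM in the control and 4.16, 6.42 and 5.31 FPKM with the inhibitors. No marker with a row was listed at 0.

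Mgll was the member that changed with every inhibitor, always upward, and Adrb3 rose with the miR-182 inhibitor. No member fell. In the authors' deposited tables, 2 of 8 members were called higher with the miR-182 inhibitor, and 1 of 8 with each of the miR-203 and miR-708 inhibitors. Over all tested genes of these tables, 14.6%, 7.23% and 7.56% were called, of which 8.4%, 4.72% and 4.51% were higher and 6.23%, 2.51% and 3.05% lower. The 3 comparisons share the same control samples. With so few members, these counts say little about the pathway as a set. At an unadjusted Cuffdiff p below 0.05, 3 members stood higher and 1 lower for miR-182, and 2 higher and 0 lower for each of the others. More genes pass this limit than q below 0.05, and the share of all genes that do was not counted. Counts at the unadjusted limit, here and for the lists below, thus cannot be read against the shares above. The median log2((inhibitor + 1) / (control + 1)) of the 8 members was 0.018, 0.034 and -0.018, beside -0.014, -0.012 and -0.019 over the 12846, 12764 and 12729 measured genes (tested, and at 1 FPKM or more in either group).

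**Figure D1:**
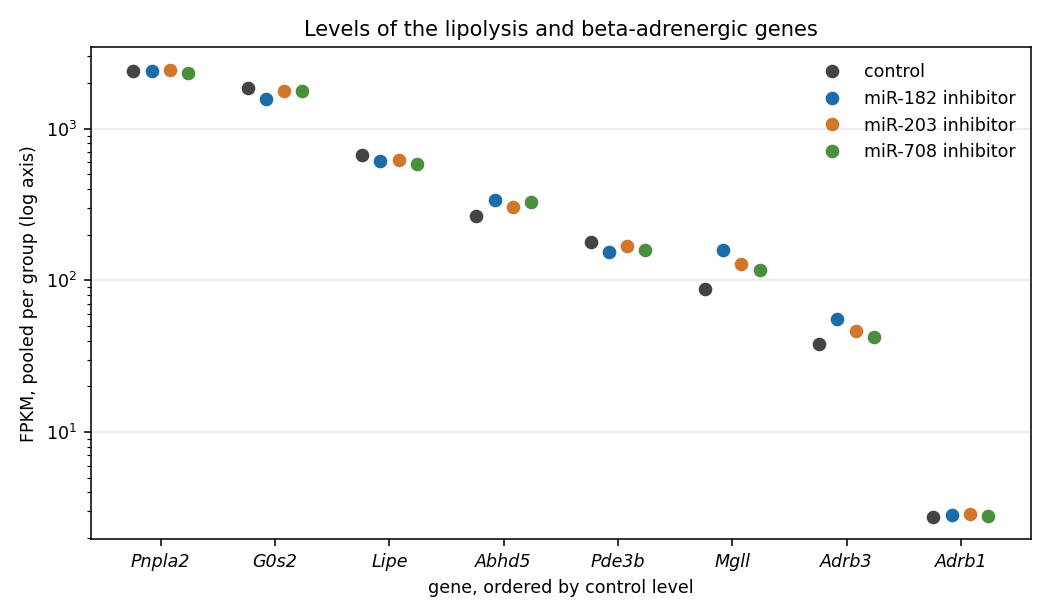
FPKM of the 8 genes (log axis), ordered by their control level, with 1 point per group, pooled over 2 samples. Pnpla2 lies highest in every group, from 2331 to 2452 FPKM, Adrb1 lowest, from 2.75 to 2.86 FPKM, and the control point of Mgll (87.2 FPKM) lies below its 3 inhibitor points.

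Pnpla2 encodes adipose triglyceride lipase, which removes the first fatty acid from a triglyceride, the rate-limiting step. It stood at 2413 FPKM in the control, 2414 with the miR-182 inhibitor, 2452 with the miR-203 inhibitor and 2331 with the miR-708 inhibitor (chromosome 7, 141455198 to 141460743, mm10). The highest of these 4 values was 1.05-fold the lowest, and none of the comparisons was called in the authors' deposited tables (q = 0.999, 0.996 and 0.990). With a rank of 38 of 18933 genes in the control, it was the most abundant of the 8 genes in every group. Its ratio was 1.00 with the inhibitor of miR-182, the microRNA whose motif its 3′ UTR holds.

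Abhd5 (also called CGI-58) is the protein that activates this lipase, and G0s2 is the small protein that inhibits it. Abhd5 stood at 265 FPKM in the control, 337 with the miR-182 inhibitor, 305 with the miR-203 inhibitor and 327 with the miR-708 inhibitor. All 3 inhibitor values lay above the control, by 1.27-fold, 1.15-fold and 1.23-fold, and none was called in the authors' deposited tables (q = 0.137, 0.605 and 0.255, with p = 0.0126, 0.154 and 0.0321). With libraries scaled by their summed FPKM the miR-203 difference of Abhd5 vanished (log2 ratio -0.0061). Measured against the median of 6 adipocyte genes (Adipoq, Fabp4, Plin1, Pparg, Cebpa and Lpl), all 3 differences of Abhd5 shrank. The log2 ratios were then 0.082, 0.071 and 0.058. G0s2 stood at 1847 FPKM in the control, 1567 with the miR-182 inhibitor, 1777 with the miR-203 inhibitor and 1779 with the miR-708 inhibitor. Its value with the miR-182 inhibitor was the lowest, 1.18-fold under the control, and the authors' deposited table did not call it (p = 0.0497, q = 0.334). In the other 2 inhibitor groups it lay within 1.04-fold of the control (q = 0.971 and 0.973 in the authors' deposited tables).

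Ratios of 2 genes inside a group do not depend on how the libraries were scaled. For every G0s2 transcript, on the FPKM scale, there were 0.144 of Abhd5 in the control, 0.215 with the miR-182 inhibitor, 0.172 with the miR-203 inhibitor and 0.184 with the miR-708 inhibitor. The ratio of Pnpla2 to G0s2 went from 1.31 in the control to 1.54, 1.38 and 1.31. These ratios have no test, since the tables hold no value per sample and neither gene was called alone.

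Lipe encodes hormone-sensitive lipase, which acts mainly on diacylglycerol and is a direct target of protein kinase A. It stood at 667 FPKM in the control, 613 with the miR-182 inhibitor, 623 with the miR-203 inhibitor and 585 with the miR-708 inhibitor. The 3 inhibitor values lay below the control, by at most 1.14-fold, and none was called in the authors' deposited tables (q = 0.822, 0.896 and 0.578). Pnpla2 exceeded Lipe by 3.62-fold in the control and by 3.93-fold to 3.98-fold with the inhibitors.

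Mgll encodes monoacylglycerol lipase, which releases glycerol and the last fatty acid and also degrades the endocannabinoid 2-arachidonoylglycerol. It stood at 87.2 FPKM in the control, 158 with the miR-182 inhibitor, 128 with the miR-203 inhibitor and 118 with the miR-708 inhibitor. The authors' locus of Mgll, shared with AC153860.1, runs from 88716424 to 88828360 on chromosome 6 (mm10). All inhibitor groups lay above the control, and the miR-182 group highest. The rise was 1.81-fold (q = 0.00176), 1.46-fold (q = 0.00327) and 1.35-fold (q = 0.0375) in the authors' deposited tables. Its log2 ratios of 0.85, 0.54 and 0.43 lay at percentiles 97.3, 95.5 and 93.6 of all measured genes. The miR-182 value was 1.24-fold the miR-203 value and 1.34-fold the miR-708 value, differences between inhibitors for which the tables give no test. The inhibitor of miR-708, the microRNA whose motif the Mgll 3′ UTR holds, gave the smallest of the 3 ratios. Neither site was tested for its part in these values.

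**Figure D2:**
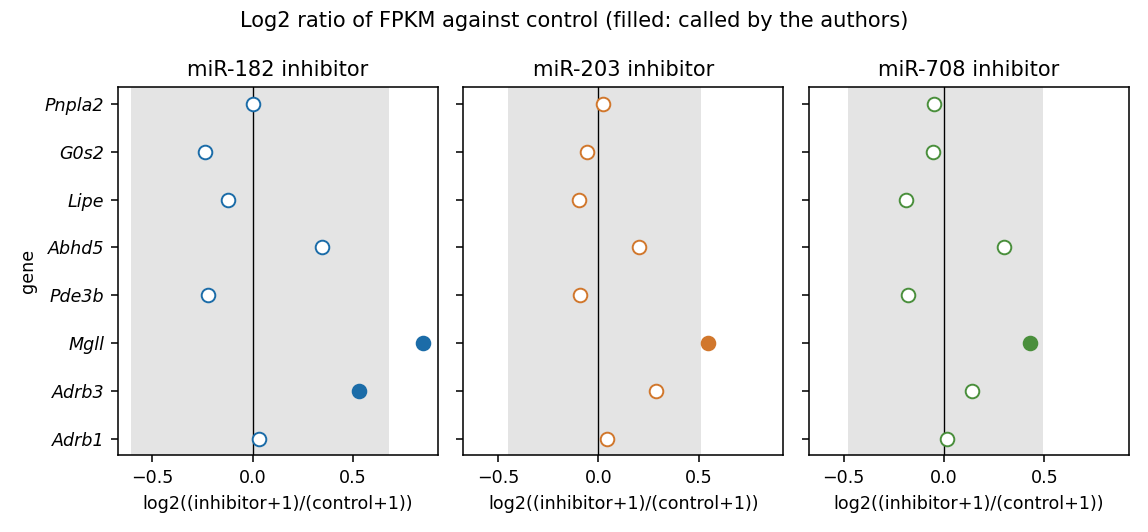
Log2 ratio of FPKM plus 1, inhibitor over control, for the 8 genes in the 3 comparisons. Filled points were called at q below 0.05 in the authors' deposited tables, and the grey band spans percentiles 5 to 95 of all measured genes. Mgll is filled in each panel (0.85, 0.54 and 0.43) and Adrb3 only in that of the miR-182 inhibitor (0.53).

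Abhd6 is a further hydrolase that acts on monoacylglycerol, and it moved against Mgll. It stood at 11.3 FPKM in the control, 4.42 with the miR-182 inhibitor, 6.66 with the miR-203 inhibitor and 6.16 with the miR-708 inhibitor. In the authors' deposited tables it fell with each inhibitor, 2.56-fold, 1.70-fold and 1.84-fold, each with q = 0.00176, the smallest q that they hold. Mgll thus exceeded Abhd6 by 7.71-fold in the control, 35.7-fold with the miR-182 inhibitor, 19.2-fold with the miR-203 inhibitor and 19.1-fold with the miR-708 inhibitor, on the FPKM scale.

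**Figure D3:**
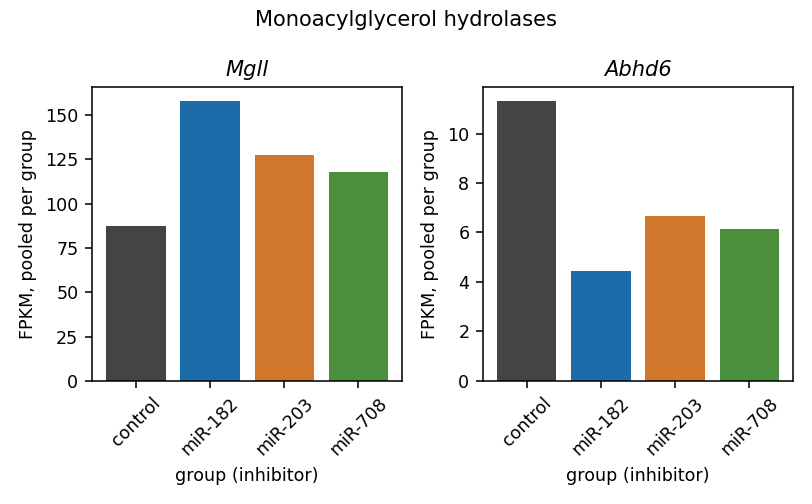
FPKM of the monoacylglycerol hydrolases Mgll and Abhd6 by group (bars from 0, pooled over 2 samples, no error available). Mgll goes from 87.2 in the control to between 118 and 158, and Abhd6 from 11.3 to between 4.42 and 6.66.

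Among the receptors, Adrb3 is the form that marks mature adipocytes of rodents. It stood at 38.0 FPKM in the control, 55.3 with the miR-182 inhibitor, 46.6 with the miR-203 inhibitor and 42.0 with the miR-708 inhibitor (chromosome 8, 27225776 to 27229588, mm10). The control was the lowest of the 4 groups and the miR-182 inhibitor the highest. In the authors' deposited tables the 1.46-fold rise with the miR-182 inhibitor was called (q = 0.00176), and the values with the miR-203 inhibitor (1.23-fold, p = 0.0232, q = 0.207) and the miR-708 inhibitor (1.11-fold, q = 0.748) were not. Whether the inhibitors differ in this was not tested. Adrb1, which also couples to Gs, stood at 2.75 FPKM in the control, 2.84 with the miR-182 inhibitor, 2.86 with the miR-203 inhibitor and 2.78 with the miR-708 inhibitor. These 4 levels lay within 1.04-fold of each other, and no comparison was called (q = 0.987, 0.974 and 0.996 in the authors' deposited tables).

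On the FPKM scale Adrb3 exceeded Adrb1 by 13.8-fold in the control, 19.5-fold with the miR-182 inhibitor, 16.3-fold with the miR-203 inhibitor and 15.1-fold with the miR-708 inhibitor. The ratio was lowest in the control, and it has no test.

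**Figure D4:**
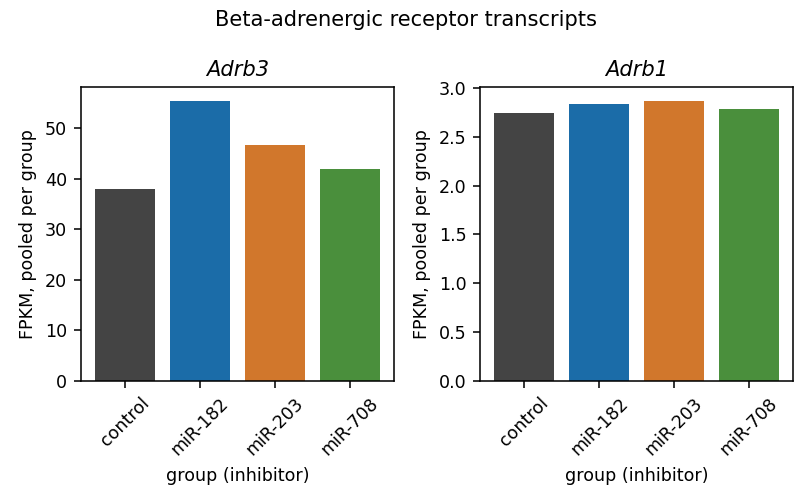
FPKM of Adrb3 and Adrb1 by group (bars from 0, each panel with its own scale, pooled over 2 samples, no error available). Adrb3 is lowest in the control (38.0) and highest with the miR-182 inhibitor (55.3), and Adrb1 lies between 2.75 and 2.86 in the 4 groups.

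Pde3b, the phosphodiesterase that insulin activates in adipocytes, stood at 179 FPKM in the control, 154 with the miR-182 inhibitor, 168 with the miR-203 inhibitor and 158 with the miR-708 inhibitor. The inhibitor values lay below the control by 1.17-fold, 1.07-fold and 1.13-fold, and none was called in the authors' deposited tables (q = 0.805, 0.978 and 0.883). Pde4d, a cyclic AMP phosphodiesterase of another family, went from 57.1 FPKM in the control to 30.5, 37.7 and 37.7 and fell in each comparison (1.87-fold, 1.51-fold and 1.51-fold, each q = 0.00176 in the authors' deposited tables). The ratio of Pde3b to Pde4d was 3.14 in the control and 5.04, 4.46 and 4.20 with the miR-182, miR-203 and miR-708 inhibitors.

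Ordered by FPKM, the control ran Pnpla2, G0s2, Lipe, Abhd5, Pde3b, Mgll, Adrb3 and Adrb1. The miR-203 and miR-708 groups kept that order. With the miR-182 inhibitor Mgll (158 FPKM) stood just above Pde3b (154 FPKM). The spread of neighbouring levels between samples is unknown, and these 2 values lie too close to be ranked.

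The signalling chain between receptor and lipase was described through 8 lists of related genes, none of which holds a member. Across them 17 of 91 measured genes were called with the miR-182 inhibitor (6 higher, 11 lower), 6 of 91 with the miR-203 inhibitor (2 higher, 4 lower) and 9 of 90 with the miR-708 inhibitor (3 higher, 6 lower). That is 18.7%, 6.59% and 10.0% of them. Over all measured genes, chosen by the same limit of 1 FPKM, the authors' deposited tables called 15.4%, 7.4% and 7.97%. Counts within a list of 8 to 16 genes are too small to be read against these shares.

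Among 8 measured adenylyl cyclases and G protein subunits, Gnai1, an inhibitory subunit, fell with the miR-182 inhibitor (from 45.5 FPKM down to 35.4 FPKM, called in the authors' deposited table with q = 0.0422), and no gene was called in the others. At an unadjusted Cuffdiff p below 0.05 these counts were 1 higher and 2 lower, then 0 and 0, then 0 and 1. Median log2 ratios of this list were -0.009, -0.022 and -0.061. Of 14 measured protein kinase A subunits, anchors and inhibitors none was called by Cuffdiff in any comparison, and 1 higher and 1 lower, 1 and 0, and 1 and 0 stood at an unadjusted p below 0.05. Prkaca, the main catalytic subunit, stood at 183 FPKM in the control and between 180 and 191 with the inhibitors.

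Phosphodiesterases other than Pde3b changed in both directions. In the authors' deposited tables, 4 of 9 measured members were called for miR-182, 1 of 9 for miR-203 and 4 of 8 for miR-708. Besides Pde4d, Pde1a, which calcium and calmodulin activate, rose with the miR-182 inhibitor (8.23 to 13.4 FPKM, q = 0.00176) and the miR-708 inhibitor (12.9 FPKM, q = 0.00706). Pde4b rose from 1.01 FPKM to 1.89 (q = 0.00176) and 1.56 FPKM (q = 0.0381), and Pde5a, which breaks down cyclic GMP, fell from 3.81 to 2.37 (q = 0.00176) and 2.87 FPKM (q = 0.0368), for miR-182 and miR-708 in the authors' deposited tables. With the miR-203 inhibitor Pde1a (10.7 FPKM), Pde4b (1.26 FPKM) and Pde5a (3.07 FPKM) were not called. The list medians were 0.28, 0.14 and -0.071. That of miR-708 rests on 1 gene fewer.

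Npr1 and Ffar4 were called with every inhibitor among the antilipolytic and other lipolytic receptors. Npr1, the receptor through which atrial natriuretic peptide stimulates lipolysis by cyclic GMP, stood at 5.40 FPKM in the control, 18.0 with the miR-182 inhibitor, 11.2 with the miR-203 inhibitor and 9.60 with the miR-708 inhibitor. It rose 3.34-fold, 2.07-fold and 1.78-fold (q = 0.00176 in each of the authors' deposited tables). Ffar4, a receptor for long-chain fatty acids, stood at 237 FPKM in the control and fell to 111 (2.14-fold, q = 0.00176), 173 (1.37-fold, q = 0.00706) and 154 FPKM (1.54-fold, q = 0.00176). Tshr, the thyrotropin receptor, which couples to Gs, fell with the miR-182 inhibitor, to 9.03 FPKM from a control level of 13.0 FPKM (q = 0.0172 in the authors' deposited table). Of the 9 measured genes of this list, 3 rose and 3 fell with the miR-182 inhibitor (also Npr3 and Mc2r upward and Ffar2 downward), and 1 rose and 1 fell with each of the others. The list medians were -0.29, -0.088 and -0.13.

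Among the other adrenergic receptors and the kinases and arrestins that silence them, Adra1d, an alpha-1 receptor, rose from 3.73 FPKM to 5.07 with both the miR-182 and the miR-203 inhibitor (q = 0.0455 and 0.0460 in the authors' deposited tables). It stood at 3.62 FPKM with the miR-708 inhibitor, not called. No other gene of the 8 measured was called by Cuffdiff, and 2, 1 and 0 stood higher and none lower at an unadjusted p below 0.05, Adra1d included. The list medians were 0.074, 0.049 and 0.018.

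Other lipases and hydrolases fell at Abhd6 and, with the miR-182 inhibitor, at Lipa, the acid lipase of lysosomes (51.5 FPKM against a control level of 72.7, called in the authors' deposited table with q = 0.00176). The other measured members, 14, 15 and 15 of 16, were not called, and the list medians were -0.014, -0.033 and 0.019. No member rose by the authors' Cuffdiff call. At an unadjusted Cuffdiff p below 0.05, 1, 1 and 0 stood higher and 5, 1 and 2 lower, called genes included. Lipg, below 1 FPKM and so outside the count, was called higher with the miR-182 inhibitor (0.207 to 0.873 FPKM).

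Of the lipid droplet coat and export genes, 13 were measured. In the authors' deposited tables Cidea fell in each comparison (5.29-fold, 1.90-fold and 2.03-fold), Plin3 with the miR-182 inhibitor (55.4 to 42.7 FPKM, q = 0.0361) and Plin4 with the miR-708 inhibitor (100.2 to 77.3 FPKM, q = 0.0460). Plin1, the coat protein from which protein kinase A releases Abhd5, was not called and stood at 650, 645, 646 and 587 FPKM in the control, miR-182, miR-203 and miR-708 groups. Aqp7, the channel that exports glycerol, stood between 94.2 and 101 FPKM in the 4 groups, also not called. The list medians were -0.090, -0.0085 and -0.061.

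Of 14 measured factors that respond to cyclic AMP, Nr4a1, an immediate early nuclear receptor, fell with the miR-182 inhibitor (2.28 FPKM against a control level of 3.06, called in the authors' deposited table with q = 0.0442). None was called by Cuffdiff with the miR-203 or miR-708 inhibitor, where 0 and 3 stood lower and 0 higher at an unadjusted p below 0.05. With the miR-182 inhibitor 3 stood lower, Nr4a1 included, and 0 higher at that limit. The list medians were -0.16, -0.0051 and -0.21.

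**Figure D5:**
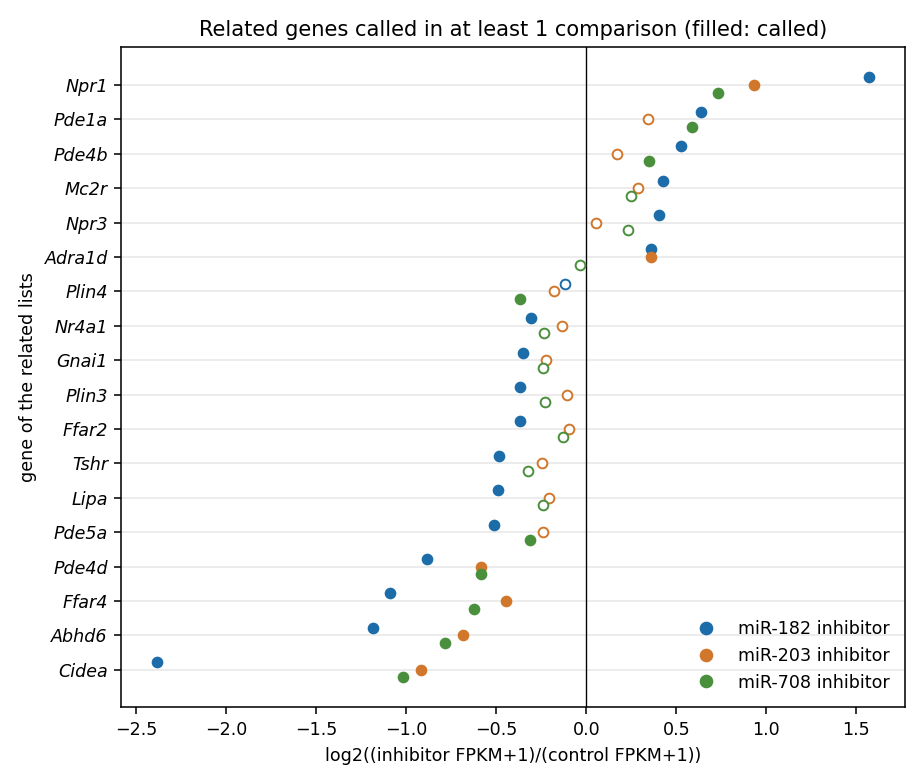
Log2 ratio of FPKM plus 1, inhibitor over control, for the related genes at 1 FPKM or more that were called in at least 1 comparison, ordered by the miR-182 value, with 1 colour per inhibitor and filled points for calls at q below 0.05 in the authors' deposited tables. Npr1 lies farthest right (1.57 with the miR-182 inhibitor), Cidea farthest left (-2.38), and Abhd6, Ffar4 and Pde4d are filled on the left for all 3 inhibitors.

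Markers of precursor cells also rose with every inhibitor, as Mgll did, whereas Adrb3 rose with the miR-182 inhibitor alone. The 5 progenitor and fibroblast markers Pdgfra, Pdgfrb, Ly6a, Dlk1 and Col3a1 were all called higher in each of the authors' deposited tables, and their summed level went from 495 FPKM in the control to 1097, 854 and 825 FPKM. The 5 brown adipocyte markers summed to 1165 FPKM in the control and 499, 953 and 887 FPKM. Ucp1 and Cidea were called lower in each comparison, and Cox8b with the miR-182 inhibitor as well. Dio2 and Prdm16 were not called in any comparison. Their deposited log2 fold changes lay mostly above the control, at 0.065, 0.021 and 0.21 for Dio2 and 0.43, 0.18 and -0.14 for Prdm16. Among 7 general adipocyte markers, Cfd was called higher in each comparison, Adipoq and Cebpa with the miR-182 inhibitor, and none lower (by Cuffdiff, also at an unadjusted p below 0.05), and their sum, mostly Fabp4, was 41468 FPKM in the control and 39601, 41930 and 47735 FPKM. Measured against the median log2 ratio of 6 of these general markers (all but Cfd), Mgll stood 0.59, 0.41 and 0.19 higher, and Adrb3 stood 0.27 higher with the miR-182 inhibitor, 0.16 higher with the miR-203 inhibitor and at -0.10 with the miR-708 inhibitor. Markers of other cells were also called in the authors' deposited tables. Cspg4, a pericyte marker, fell in each comparison (11.2 FPKM in the control, then 6.66, 8.41 and 6.98), as did the muscle marker Des (5.89 FPKM, then 2.76, 2.82 and 3.21). Other markers of these cells went the other way. The smooth muscle marker Acta2 lay above the control, uncalled, by deposited log2 fold changes of 0.34, 0.33 and 0.19. So did the skeletal muscle marker Acta1 (0.42, 0.13 and 0.82). Myh11, a smooth muscle marker below 1 FPKM, was called higher with the miR-182 inhibitor (q = 0.00463). Rgs5, a pericyte marker below 1 FPKM, lay under the control and was not tested. With the miR-182 inhibitor the macrophage marker Lyz2 fell from 3.32 to 1.46 FPKM (q = 0.00176), and Krt19, a mesothelial marker, rose from 5.56 to 8.77 FPKM (q = 0.00928). Of the endothelial markers, all below 1 FPKM, Cdh5 was called higher with the miR-182 inhibitor (q = 0.00591). Pecam1 was called higher with the miR-708 inhibitor (q = 0.00928). The 4 smooth muscle and pericyte markers summed to 26.6 FPKM in the control and 26.1, 27.7 and 24.4 FPKM, and the 2 skeletal muscle markers with a row to 6.48 FPKM and 3.55, 3.47 and 4.25 FPKM. The part of cell composition in these results was not tested. In RNA from whole cultures, a changed number of cells of a type and a changed amount of RNA per cell cannot be told apart.

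By the distance between their 3 log2 ratios, over 12356 tested genes with at least 1 FPKM in the control, the genes closest to Mgll were Szrd1 (distance 0.024), Gnptab (0.028) and Fam102b (0.030). Of these, Fam102b was called higher in all 3 of the authors' deposited tables, and Szrd1 and Gnptab with the miR-182 inhibitor only. Closest to Adrb3 were Tpbg (0.021), Acpl2 (0.026) and Xdh (0.033). Tpbg (1.60 FPKM in the control) and Acpl2 (1.10 FPKM) lay near the 1 FPKM added before the log2 ratio, which shrinks their ratios. Their plain ratios with the miR-182 inhibitor were 1.72 and 1.86, beside 1.46 for Adrb3. In the authors' deposited tables Tpbg was called higher with the miR-182 and miR-203 inhibitors, Xdh with the miR-182 inhibitor only, and Acpl2 in no comparison. Xdh, xanthine dehydrogenase, stood at 27.4 FPKM in the control and 39.3, 33.2 and 30.6 FPKM with the inhibitors. The ratios share 1 control group, so a likeness over 3 of them is a description.

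Several members overlap other genes, and whether strand was used in counting is not known here. The authors' locus of Mgll also holds AC153860.1 (0.640 FPKM in the control), that of Abhd5 holds A730085K08Rik (25.4 FPKM) and that of Lipe holds 4732471J01Rik (305 FPKM). In GENCODE M21 the last 2 lie on the opposite strand to the member, as do Gm26588 and Gm43937 at Mgll, Lamb3 across G0s2 and Gm45470 at Adrb3. Reads of such pairs may have been divided between them. None of the 3 genes that share an authors' locus was called in any comparison.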

How the data were processed

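Messenger RNA was sequenced from 8 samples in 4 groups of 2, grouped by their titles. Per the submitters' processing notes, reads were aligned with TopHat2 version 2.0.9 to mouse build mm10 and compared with Cuffdiff version 2.1.1. The sources used here name no options, annotation or library scaling. Each of 3 tables that the authors deposited lists, for 18933 genes, FPKM per group, the log2 fold change of inhibitor over control, and a p-value and q-value per gene. The deposited log2 fold changes matched a recalculation to within 0.01 for all but a few genes (18931, 18929 and 18929 matched). A p and q of 1 was read as a gene without a test, leaving 14391, 14371 and 14316 tested. Locus starts were raised by 1 to count from 1.

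Computed here (Python 3.11.15, pandas 2.3.3) were ratios of FPKM, log2 ratios with a pseudocount of 1 FPKM, counts of calls at q below 0.05 among genes at 1 FPKM or more in either group, and Benjamini-Hochberg alternatives, with code tested on simulated data. GENCODE M21 (GRCm38, the assembly of mm10) gave the 3′ UTRs. Members and lists were chosen with earlier results of these data known. Named were all members, the called genes of each list (the 3 largest where more than 4 were called), the 3 genes nearest in pattern to each called member, and adipocyte check genes. Prkaca, Aqp7, Emr1, Lipg, Npr3, Mc2r, Ffar2, Cox8b, Dio2, Prdm16, Cfd, Cebpa, Cspg4, Des, Acta2, Acta1, Myh11, Rgs5, Cdh5, Pecam1, Lyz2 and Krt19 were added after their values were seen. A gene of the related lists is not reported here and was left out of their counts.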

Additional observations from a re-analysis of the deposited data

How the results depend on the processing

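No paired analysis was possible because the tables hold 1 pooled value per group, and for the same reason no replicate could be left out. The calls among the 8 genes were the same when the authors' p-values were adjusted over 1 table or over the 3 together. At q below 0.01 the miR-708 count went from 1 to 0. Asking for a ratio of 1.5 as well left 1 call for miR-182 (Mgll) and 0 for miR-203 and 0 for miR-708. Of 144 log2 ratios of members under another pseudocount or scaling, 102 kept their direction and moved by at most 0.1 and 42 did not. Scaling by summed FPKM shifted all genes by 0.21 for miR-203 and 0.16 for miR-708. Over the alternatives Mgll ranged from 0.59 to 0.87, 0.34 to 0.56 and 0.19 to 0.45, and Adrb3 with the miR-182 inhibitor from 0.27 to 0.56. The uncalled Adrb3 value of miR-708 ranged from -0.10 to 0.16. Measuring against the median of the 6 adipocyte genes lowered all log2 ratios, by 0.26, 0.13 and 0.24. The uncalled values of Lipe then stood at -0.38, -0.23 and -0.43. Those of G0s2 stood at -0.50, -0.19 and -0.30, and those of Pde3b at -0.49, -0.22 and -0.42. Calls of the related lists went from 17, 6 and 9 to 11, 5 and 6 at q below 0.01. Unknown depth limits what an uncalled value shows.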

Other observations

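The size of change that the authors' test called can be read from genes of similar level. Among the 673 other tested genes whose control FPKM lay within 2-fold of that of Abhd5, the smallest absolute log2 ratio called in the authors' deposited table for miR-182 was 0.37, just above the 0.35 of Abhd5, which was not called. Of the 190 of these genes that changed at least as much as Abhd5, 106 were called (55.8%). For the 1834 genes around Mgll the smallest called value was 0.35 for miR-182, 0.35 for miR-203 and 0.34 for miR-708. The log2 ratio of Mgll with the miR-708 inhibitor (0.43) was reached by 179 of them, and 71 of these were called (39.7%). Changes below about this size, such as those of Lipe, G0s2 and Pde3b without rescaling, therefore lay under the smallest ones that the deposited tables call at their level.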
